A study of Mus musculus with 16 samples.

Results

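The genes of the serum- and glucocorticoid-regulated kinases (SGK), the mineralocorticoid receptor and their sodium transport targets were described across 4 treatments of HL-1 cells, a line derived from mouse atrial cardiomyocytes that keeps contractile features in culture. The 7 genes were the kinases Sgk1, Sgk2 and Sgk3, the mineralocorticoid receptor Nr3c2, the ubiquitin ligase Nedd4l, the epithelial sodium channel subunit Scnn1a and the sodium pump subunit Atp1b1. They were chosen by symbol and found among 19096 genes with a symbol on the arrays through the accession of each probe, with the probe of the highest mean signal standing for a gene. Of the 7, 6 passed the filter on dim probes and were tested among 17771 genes. The cells, labelled female, were grown in Claycomb medium and treated for 6 h with 100 nM dexamethasone (Dex, a synthetic glucocorticoid) plus 10 nM estradiol (E2), with 100 nM Dex, with 10 nM E2, or with vehicle (PBS). Each label had 4 single-colour arrays, numbered 1 to 4, and the study states 4 independent experiments. All 4 groups are the same line, which descends from an atrial tumour of mice carrying the SV40 large T antigen under an atrial natriuretic factor promoter, so every group holds proliferating, immortalised cells.

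Aldosterone and cortisol-like steroids enter the cell and bind the mineralocorticoid receptor, which also takes up glucocorticoids with high affinity, or the glucocorticoid receptor, and either receptor can switch on Sgk1. In the kidney collecting duct the SGK1 kinase phosphorylates the ubiquitin ligase NEDD4L, which then binds the epithelial sodium channel less and spares it from removal at the membrane, while the sodium pump in the opposite membrane completes sodium uptake. In cardiomyocytes the sodium pump sets the sodium gradient that drives calcium export.

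Both steroid receptors recognise the same palindrome, so the promoter windows of the members were searched for it, and the Sgk1 window that holds it is shown together with the window before the last annotated Sgk1 start. Windows of the RefSeq promoter table of assembly GRCm38.p6 were used for 3 of the 7 members, Sgk1 with 6 windows and Nr3c2 and Atp1b1 with 1 each. A window is taken here as the 250 bases before a start. Capitals mark the motif AGAACA and its reverse complement TGTTCT, which in the palindrome follow each other at a distance of 3 bases.
Sgk1, chr10:21993640-21993889, plus strand: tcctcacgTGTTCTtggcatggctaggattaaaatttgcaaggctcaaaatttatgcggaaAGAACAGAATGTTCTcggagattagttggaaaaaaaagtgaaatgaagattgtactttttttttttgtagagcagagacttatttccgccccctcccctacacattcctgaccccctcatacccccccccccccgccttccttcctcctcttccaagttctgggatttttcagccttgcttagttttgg
Sgk1, chr10:21994416-21994665, plus strand: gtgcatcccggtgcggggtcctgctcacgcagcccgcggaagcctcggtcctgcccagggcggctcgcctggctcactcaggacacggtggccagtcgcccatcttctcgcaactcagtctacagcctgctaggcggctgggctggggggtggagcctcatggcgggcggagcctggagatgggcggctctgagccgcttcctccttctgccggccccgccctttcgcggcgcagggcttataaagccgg

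The whole palindrome, searched on both strands, occurred in 3 of 32817 windows of all genes (0.00914%), those of Sgk1, Acnat2 and Gm35041. In Sgk1 it read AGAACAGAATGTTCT at bases 21993701 to 21993715 of chromosome 10. Its first base lay 189 bases before the annotated start at 21993890, which follows its window, and 965 bases before the next annotated start at 21994666. The single arm occurred in 16.1% of all windows, in 3 of the 6 Sgk1 windows and in neither the Nr3c2 nor the Atp1b1 window. The second window printed above lacked it, had a GC content of 70.4% and held the GC box GGGCGG or its complement 4 times, a motif found in 32.7% of all windows. These matches describe letters in a window and show no binding, and the table does not say from which start the transcript read by the Sgk1 probe comes.

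Levels are log2 of the processed signal after division by its 75th percentile on that array, which lay between 402 and 557 intensity units, and 58.6% to 65.6% of probes were well above background. Levels of different probes are not set against each other. Vehicle 1 stood apart from the other arrays, with correlations of 0.973 to 0.982 over probes. The cells carried atrial markers: Myl7, Myl4, Tnnt2, Actc1, Myh6, Sln, Nppa and Gja5 were well above background on 16 of 16 arrays. So were the ventricular markers Myl2 (mean level -3.27) and Irx4 (-5.07), the smooth muscle marker Myh11 (-3.92) and the collecting duct marker Aqp2 (-3.77). The collecting duct marker Aqp3 was above background on 15 arrays. A signal above background alone therefore does not set the atrial markers apart. Of the endothelial markers Pecam1 and Cdh5 were above background on 0 arrays and Tek on 2, and of the leukocyte markers Ptprc was above it on 0 and Cd68 on 16, at a mean level of -4.22. The fibroblast markers Col1a1, Pdgfra and Dcn were above background on 16 arrays, Col1a1 at a mean level of 5.06, and Tcf21 on 10. RNA came from whole cultures, in which fewer cells of a type and less RNA per cell cannot be told apart.

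Per1, a clock gene that glucocorticoids are known to induce, went against the Dex label on 4 arrays. It was high, between 1.75 and 1.99, on 8 arrays (Dex+E2 1, 2 and 4, Dex 1, 2 and 4, E2 4 and Vehicle 4) and low, between -1.29 and -0.75, on the other 8 (Dex+E2 3, Dex 3, E2 1, 2 and 3, and Vehicle 1, 2 and 3). The arrays labelled Dex 3 and Dex+E2 3 were thus Per1-low and those labelled E2 4 and Vehicle 4 Per1-high. Whether the labels of these 4 arrays match their treatment was not tested. Every label comparison below includes some of them, except that within slide 1. Each member is given by label, with tests, and by Per1 level, as a description without a test because Per1 is itself measured. The Per1 sets were split at a level of 0, and no array lay between -0.75 and 1.75.

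Among the kinases, Sgk1, the member that steroids induce acutely in kidney, was well above background on all 16 arrays. Its levels were 1.18, 1.15, 0.68 and 0.92 on Dex+E2 arrays 1 to 4, 1.20, 1.23, 0.57 and 0.88 on Dex arrays, 0.61, 0.58, 0.65 and 1.10 on E2 arrays, and 1.04, 1.24, 0.40 and 1.02 on vehicle arrays. Each of the Dex+E2, Dex and vehicle labels held 3 high arrays and 1 low one, the E2 label the reverse, and the labels overlapped. Sgk1 averaged 0.98 ± 0.23 on Dex+E2, 0.97 ± 0.31 on Dex, 0.73 ± 0.24 on E2 and 0.92 ± 0.37 on vehicle arrays (SD, n = 4 each).

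By Per1 level, Sgk1 lay at 0.88 to 1.23 with a median of 1.12 on the 8 Per1-high arrays, against 0.40 to 1.24 with a median of 0.63 on the 8 Per1-low arrays. The difference of the medians was 0.49, or 1.41-fold. Of 17771 genes, 376 had a larger one. The overlap came from Vehicle 1 at 1.04 and Vehicle 2 at 1.24, both Per1-low. Without these arrays, an exclusion chosen after the values were seen, the Per1-low arrays ran from 0.40 to 0.68 and lay wholly below the Per1-high arrays.

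**Figure D1:**
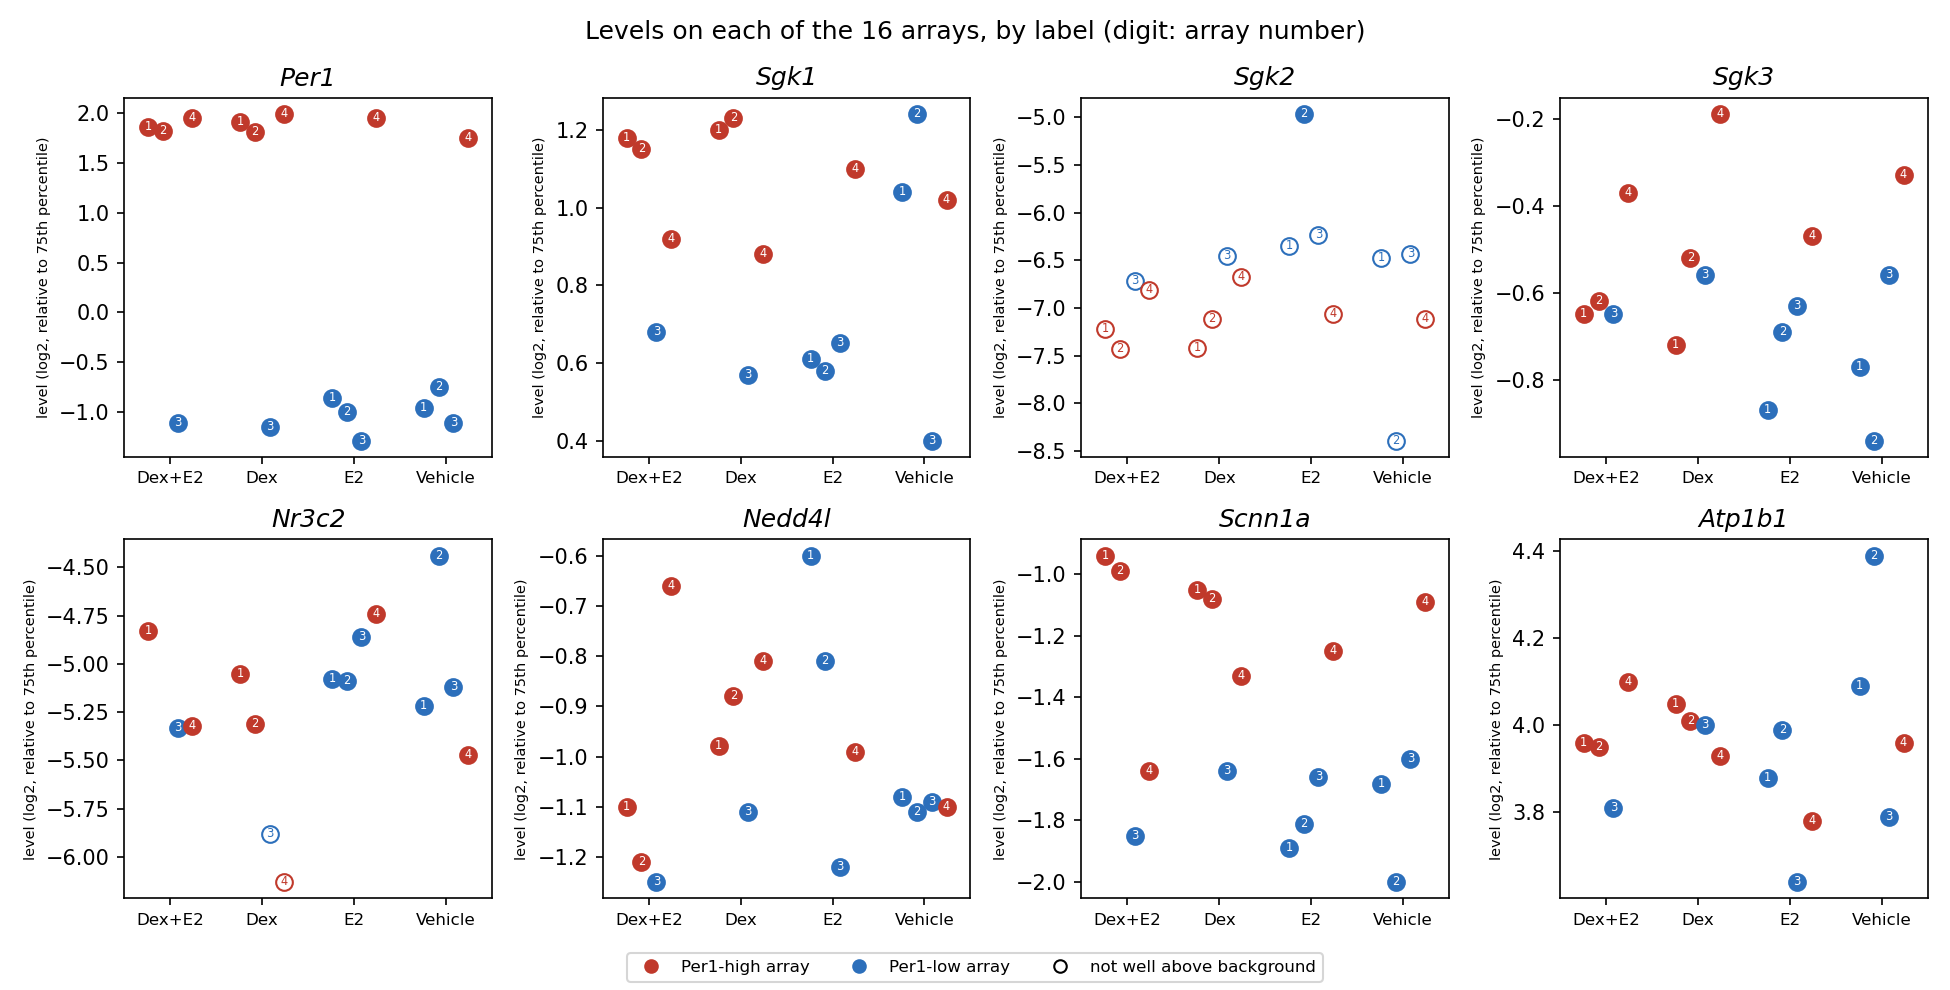
Level of Per1 and the 7 genes on each array (y axis, log2 relative to that array's 75th percentile) by label (x axis), with the array number in each point, red for Per1-high and blue for Per1-low arrays, and open circles where the probe was not well above background. Sgk1 and Scnn1a are high on most red points within a label, Sgk1 is also high on Vehicle 1 and 2, and Sgk2 is filled only on E2 2.

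Sgk3, a kinase carried to endosomes by a lipid-binding domain, was well above background on all 16 arrays. Its levels were -0.65, -0.62, -0.65 and -0.37 on Dex+E2 arrays 1 to 4, -0.72, -0.52, -0.56 and -0.19 on Dex arrays, -0.87, -0.69, -0.63 and -0.47 on E2 arrays, and -0.77, -0.94, -0.56 and -0.33 on vehicle arrays. Array 4 was the highest of its label in all 4 labels. By Per1 level Sgk3 lay at -0.72 to -0.19 with a median of -0.50 on Per1-high arrays, against -0.94 to -0.56 with a median of -0.67 on Per1-low arrays. The sets overlapped, with 5 of 8 Per1-high arrays above all Per1-low arrays and a difference of medians of 0.17.

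Sgk2, a relative best known from kidney and liver, was well above background on 1 of 16 arrays, E2 2, at -4.97 and 14.3 intensity units. On the other 15 arrays its signal was 1.30 to 6.65 units and has only the meaning of a bound. It was not tested.

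Nr3c2, which encodes the mineralocorticoid receptor, was measured near the lower limit of the arrays. Its probe read 7.93 to 20.1 intensity units on 15 arrays, and 13 of these were well above background. On Dex+E2 2 the spot carried an outlier flag at 212 units and was left out, so that label has 3 values. Its levels were -4.83, -5.33 and -5.32 on Dex+E2 1, 3 and 4, -5.05, -5.31, -5.88 and -6.13 on Dex arrays 1 to 4, -5.08, -5.09, -4.86 and -4.74 on E2 arrays, and -5.22, -4.44, -5.12 and -5.47 on vehicle arrays. The lowest values belonged to Dex 3 and Dex 4, the arrays not well above background, and the Dex and vehicle arrays overlapped. By Per1 level it lay at -6.13 to -4.74 on 7 Per1-high arrays, against -5.88 to -4.44 on 8 Per1-low arrays. The other 2 Nr3c2 probes were above background on 0 arrays.

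Nedd4l, the ligase that marks the channel for removal, was well above background on 16 arrays, and its labels overlapped. Its levels were -1.10, -1.21, -1.25 and -0.66 on Dex+E2 arrays 1 to 4, -0.98, -0.88, -1.11 and -0.81 on Dex arrays, -0.60, -0.81, -1.22 and -0.99 on E2 arrays, and -1.08, -1.11, -1.09 and -1.10 on vehicle arrays. Vehicle arrays lay within 0.03 of each other and inside the range of the other labels. By Per1 level the medians were -0.98 on Per1-high and -1.10 on Per1-low arrays, and the ranges overlapped.

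Scnn1a encodes the alpha subunit, around which the sodium channel assembles. Its levels were -0.94, -0.99, -1.85 and -1.64 on Dex+E2 arrays 1 to 4, -1.05, -1.08, -1.64 and -1.33 on Dex arrays, -1.89, -1.81, -1.66 and -1.25 on E2 arrays, and -1.68, -2.0, -1.60 and -1.09 on vehicle arrays. Dex+E2 1 and 2 were the highest and Vehicle 2 the lowest, and the labels overlapped. By Per1 level Scnn1a lay at -1.64 to -0.94 with a median of -1.08 on Per1-high arrays, against -2.0 to -1.60 with a median of -1.75 on Per1-low arrays. The difference of medians was 0.66, or 1.58-fold, and 246 of 17771 genes had a larger one. In all, 7 of the 8 Per1-high arrays were above every Per1-low array, and Dex+E2 4 at -1.64 was the exception. These levels come from the brighter of 2 Scnn1a probes, well above background on 16 arrays, while the other was above it on 4.

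Atp1b1, the beta subunit that carries the sodium pump to the membrane, ran from 3.64 to 4.39. Its levels were 3.96, 3.95, 3.81 and 4.10 on Dex+E2 arrays 1 to 4, 4.05, 4.01, 4.00 and 3.93 on Dex arrays, 3.88, 3.99, 3.64 and 3.78 on E2 arrays, and 4.09, 4.39, 3.79 and 3.96 on vehicle arrays. E2 arrays were lowest on average, with overlap. By Per1 level the medians were 3.96 on Per1-high and 3.94 on Per1-low arrays. Among the 6 tested members the standard deviation over 16 arrays was widest for Nr3c2, at percentile 86.2 of all genes tested, and narrowest for Atp1b1, at percentile 45.8.

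The labels were compared with limma over all 16 arrays, with Benjamini-Hochberg adjustment over 17771 genes. Dex against vehicle called 0% of the genes and 0 of the 6 members, with 1933 genes at an unadjusted p under 0.05. The 6 members had a median difference of 0.10 on the log2 scale, against -0.03 over all genes. Scnn1a differed by 0.31 ± 0.23 (SE, adjusted p = 0.614), with a 95% interval of -0.18 to 0.81. Sgk1 differed by 0.04 ± 0.19 (SE, adjusted p = 0.946), with an interval of -0.36 to 0.45. Nr3c2 differed by -0.53 ± 0.26 (SE, adjusted p = 0.478, n = 4 each), where 2 Dex arrays were not well above background. On 1.19% of all genes every Dex array lay above every vehicle array and on 3.37% every one below, against 0 of the 6 members.

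E2 against vehicle also called 0% of the genes and 0 of 6 members, with 682 genes at an unadjusted p under 0.05. Atp1b1 differed by -0.24 ± 0.11 (SE, limma adjusted p = 0.979), the 1 member at an unadjusted p under 0.05 (0.0468). It averaged 3.82 ± 0.15 on E2 arrays and 4.06 ± 0.25 on vehicle arrays (SD, n = 4 each), and leaving out Vehicle 2 took the difference to -0.13. Sgk1 differed by -0.19 ± 0.19 (SE, adjusted p = 0.995). The arrays of E2 and vehicle did not overlap for 0 of 6 members, against 1.53% of all genes in the higher and 0.703% in the lower direction.

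The combined treatment bears on the antagonism named in the study's title. It was set against vehicle, Dex and E2 in turn and in the interaction of both hormones, and each of these comparisons called 0% of the genes and 0 of 6 members, with 989, 567, 714 and 661 genes at an unadjusted p under 0.05. Adjusted p-values of the members were between 0.776 and 1 in these 4 comparisons. For Sgk1 Dex+E2 differed from Dex by 0.01 (95% interval -0.39 to 0.42) and the interaction was 0.20 (interval -0.37 to 0.77). For Scnn1a Dex+E2 differed from Dex by -0.08 (interval -0.57 to 0.42) and the interaction was -0.02 (interval -0.72 to 0.68). No member separated the arrays of Dex+E2 from those of vehicle (background 0.726% higher, 1.12% lower), of Dex (2.27% and 0.805%) or of E2 (0.732% and 2.16%). Comparisons that share vehicle, Dex or E2 arrays are not independent of each other.

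**Figure D2:**
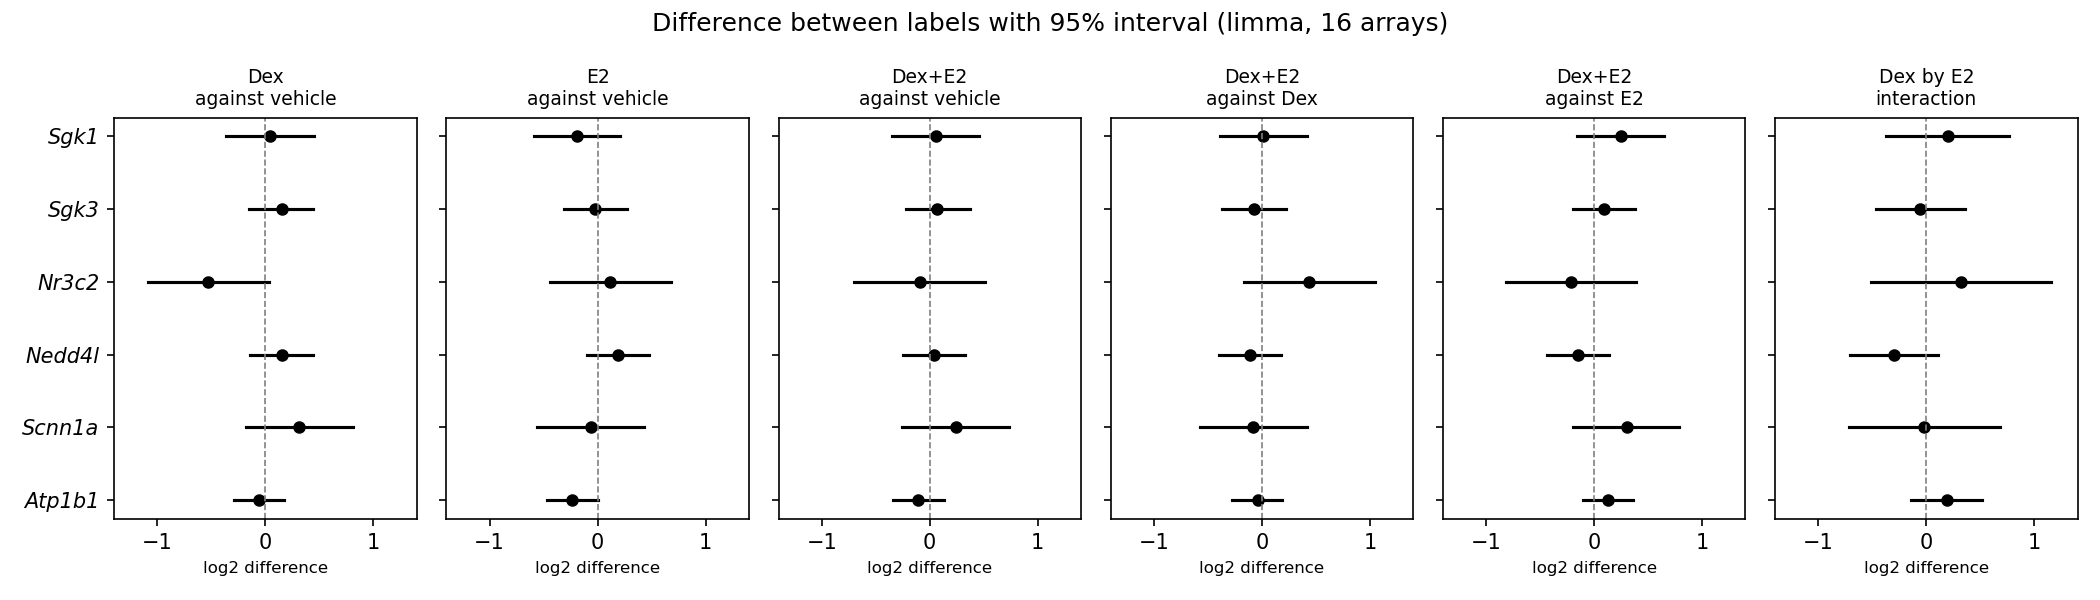
Difference between labels for the 6 tested genes (x axis, log2, first label minus second) with its 95% interval from limma over 16 arrays, 1 panel per comparison. The intervals span 0 except that of Atp1b1 in the panel of E2 against vehicle, whose upper bound rounds to 0, and the widest belong to Nr3c2 and Scnn1a.

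The arrays lay on 4 slides of 4 arrays, and each slide held 2 arrays of each of 2 labels, so comparisons were repeated within slides. Position on the slide and label cannot be told apart there. On slide 1, with Dex 1 and 2 Per1-high and Vehicle 1 and 2 Per1-low, 45 genes were called (0.253%) and 0 of 6 members. Scnn1a stood at -1.05 and -1.08 on the Dex arrays, against -1.68 and -2.0 on the vehicle arrays. The difference of 0.77 ± 0.14 (SE, limma, 1.71-fold) did not pass over all genes (adjusted p = 0.156, unadjusted p = 0.00375). It was 0.94 without Vehicle 1 and 0.61 without Vehicle 2, where the lone vehicle array is assumed to vary like the Dex arrays. The number of calls on this slide was set by single arrays, with 6678 genes called without Vehicle 1, 1520 without Vehicle 2, and 0 without Dex 1 or without Dex 2. Sgk1 differed by 0.07 ± 0.10 on slide 1 (SE, adjusted p = 0.714).

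On slides 2, 3 and 4, 0% of the genes and 0 of 6 members were called, with 1451, 2164 and 649 genes at an unadjusted p under 0.05. Dex+E2 1 and 2 against Dex 3 and 4 on slide 3 differed by 0.44 ± 0.13 for Sgk1 and by 0.52 ± 0.14 for Scnn1a (SE, adjusted p = 0.408 for both), and Dex 3 there is Per1-low. For Nr3c2 that slide holds 1 Dex+E2 value, -4.83, against -5.88 and -6.13 on Dex arrays that were not well above background, and no difference is given. E2 1 and 2 against Vehicle 3 and 4 on slide 2 differed by -0.51 ± 0.21 for Scnn1a (SE, adjusted p = 0.614) and by 0.39 ± 0.12 for Nedd4l (SE, adjusted p = 0.605), and Vehicle 4 there is Per1-high. Dex+E2 3 and 4 against E2 3 and 4 on slide 4 differed by -0.29 ± 0.18 for Scnn1a and by -0.08 ± 0.18 for Sgk1 (SE, adjusted p = 0.998 for both), and each of these labels there has 1 Per1-high and 1 Per1-low array.

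Across Per1 sets, 1.99% of all genes tested had every Per1-high array above every Per1-low array and 2.02% had every one below. Of the 6 members 0 did so in either direction. Vehicle 1 and 2 were the arrays that made Sgk1 overlap, so leaving them out fixed in advance that Sgk1 lay wholly above. The share of all genes above without them, 2.57%, is therefore no measure for Sgk1. Over all genes the median difference of medians was -0.01, and 95% of genes lay between -0.52 and 0.44, so the values of Sgk1 (0.49) and Scnn1a (0.66) lay beyond the upper bound. The authors' deposited table gave 0.47 for Sgk1 and 0.67 for Scnn1a. With the normexp background correction the values were 0.42 for Sgk1 and 0.06 for Scnn1a, and with flagged local backgrounds replaced before it, a setting added after seeing the data, 0.45 and 0.47.

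Within slides the Per1-high minus Per1-low difference of Scnn1a was 0.77, 0.72, 0.65 and 0.30 on slides 1 to 4, and that of Sgk1 was 0.07, 0.44, 0.58 and 0.34. The Scnn1a difference was therefore positive on each slide, and the Sgk1 difference was near 0 on the slide that holds Vehicle 1 and 2. Slide 2 had 1 Per1-high array and slide 3 had 1 Per1-low array, and on slide 1 the split is that of the label. On slide 4 the lowest Per1-high value of Scnn1a was -1.64 and the highest Per1-low value -1.66. Sgk3, at 0.23, 0.37, -0.06 and 0.22, was positive except on slide 3. Nedd4l, at 0.16, -0.29, 0.01 and 0.41, changed sign between slides, as did Nr3c2, at -0.35, -0.38, 0.40 and 0.06. Atp1b1 values were -0.21, 0.09, -0.05 and 0.22. Of the 8 atrial markers, Sln had medians of 3.45 on Per1-high and 2.37 on Per1-low arrays, Myh6 of 5.85 and 5.39, Nppa of 0.50 and 0.88, and Gja5 of -3.71 and -2.30. The other 4 were closer, Myl7 at 7.90 and 7.85, Myl4 at 6.28 and 6.36, Tnnt2 at 7.38 and 7.26, and Actc1 at 6.36 and 6.45. The part of these markers in the member differences was not tested.

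**Figure D3:**
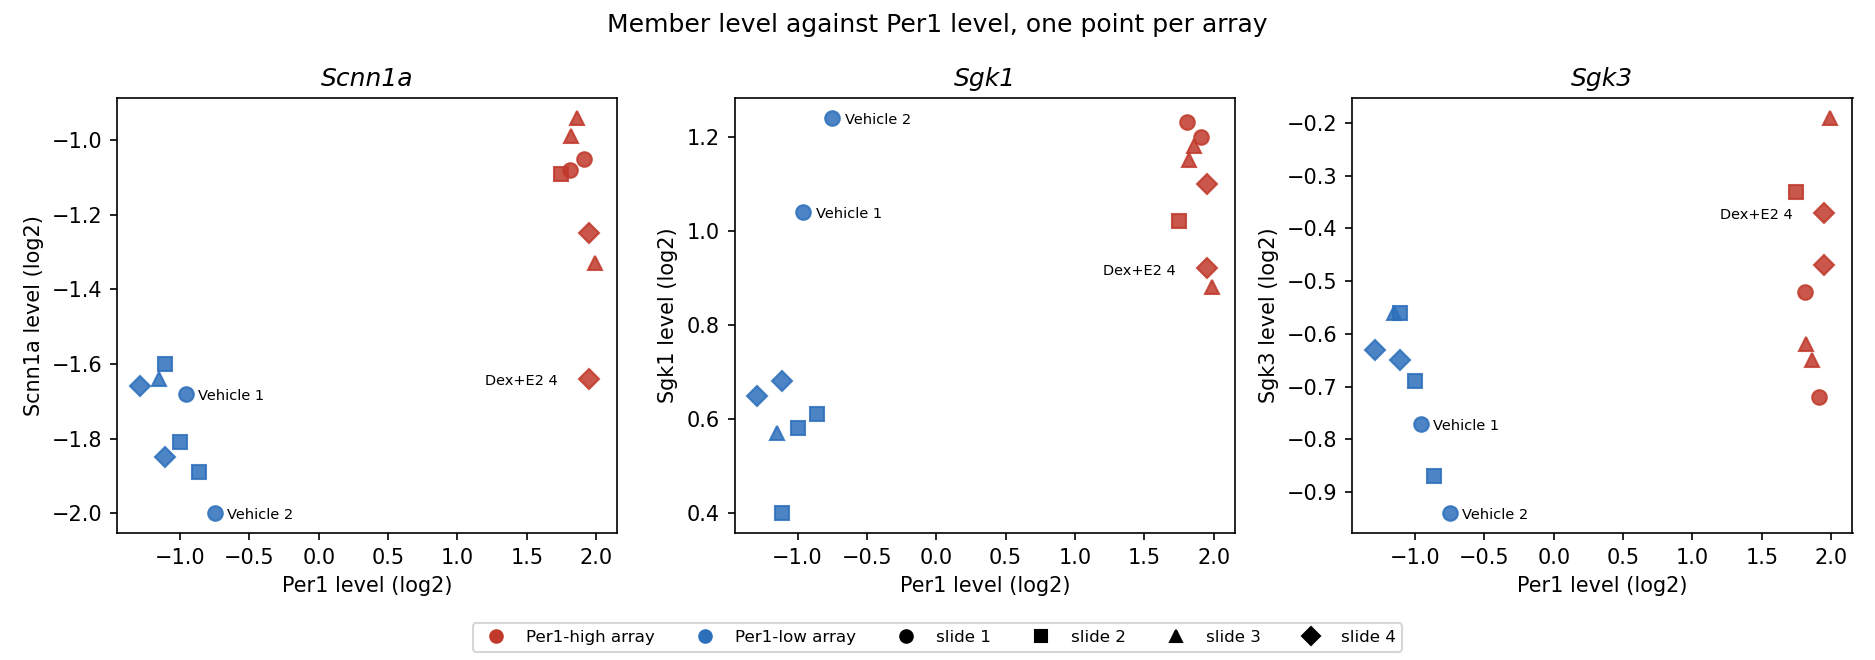
Level of Scnn1a, Sgk1 and Sgk3 (y axes, log2) against the level of Per1 (x axes, log2), 1 point per array, with colour for the Per1 set and shape for the slide. Scnn1a falls into a lower left and an upper right cloud with Dex+E2 4 at -1.64 in the lower right, and Sgk1 does the same except for Vehicle 1 and 2 at 1.04 and 1.24.

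Arrays 3 and 4 of a label shared label and slide but were Per1-low and Per1-high in all 4 labels. Their comparison is free of label and slide, although it uses arrays already in the sets above. Array 4 always took the position after array 3, so array number, position and Per1 set cannot be told apart there. Array 4 minus array 3 was 3.06, 3.15, 3.24 and 2.86 for Per1 in Dex+E2, Dex, E2 and vehicle. For Sgk1 it was 0.24, 0.30, 0.44 and 0.62, for Scnn1a 0.20, 0.32, 0.41 and 0.51, and for Sgk3 0.28, 0.37, 0.16 and 0.23. These 3 of 6 members were higher on array 4 in all 4 labels, as were 9.66% of all genes tested. Another 15.6% of genes were lower in all 4, and 0 of the members. Nedd4l was higher by 0.59, 0.30 and 0.23 in Dex+E2, Dex and E2, and differed by -0.01 in vehicle.

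Arrays 1 and 2 shared their Per1 set in every label. Over all genes the median size of the array 4 minus array 3 difference was 0.21, 0.17, 0.11 and 0.17 in Dex+E2, Dex, E2 and vehicle, against 0.10, 0.08, 0.14 and 0.18 for array 2 minus array 1, so arrays 3 and 4 differed more in general in Dex+E2 and Dex. Array 2 minus array 1 was -0.03, 0.03, -0.03 and 0.21 for Sgk1 in Dex+E2, Dex, E2 and vehicle, and -0.05, -0.03, 0.08 and -0.32 for Scnn1a. Outside the vehicle label these were smaller in size than every array 4 minus array 3 difference of the same gene. For Sgk3 they were 0.03, 0.20, 0.17 and -0.17, and the largest of these exceeds the smallest of its array 4 minus array 3 differences. Between single arrays of the same number, on different slides, Sgk1 differed from vehicle by -0.10 in Dex+E2, -0.14 in Dex and 0.08 in E2 on arrays 4, all Per1-high, and by 0.28, 0.18 and 0.26 on arrays 3, all Per1-low. Scnn1a differed by -0.56, -0.24 and -0.16 on arrays 4 and by -0.25, -0.05 and -0.06 on arrays 3.

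**Figure D4:**
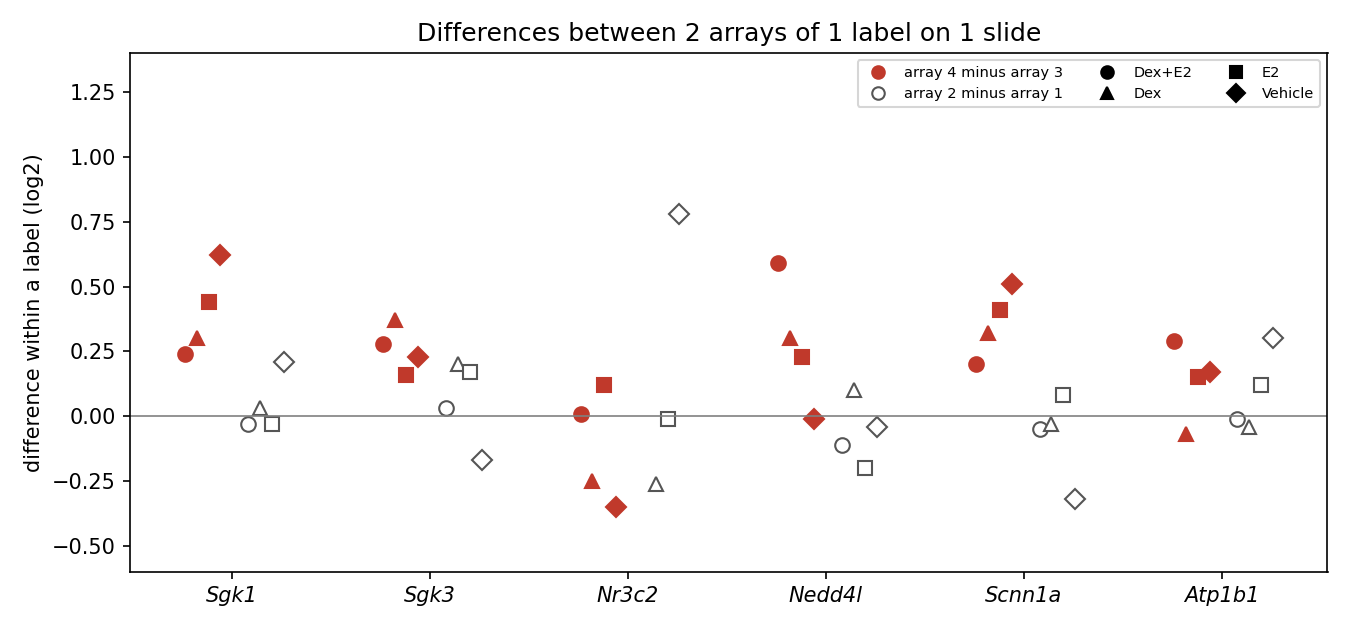
Difference between 2 arrays of the same label and slide (y axis, log2) for the 6 tested genes, filled red for array 4 minus array 3 (Per1-high minus Per1-low) and open for array 2 minus array 1 (same Per1 set), with shape for the label. Sgk1, Sgk3 and Scnn1a have all 4 red points above 0, and Nr3c2, Nedd4l and Atp1b1 do not. The Nr3c2 array 2 minus array 1 point of Dex+E2 is missing because a flagged spot was left out.

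The members did not rise and fall as 1 group. Over the 16 arrays Sgk1 correlated with Scnn1a at r = 0.58 and with Atp1b1 at 0.53, Sgk3 with Nr3c2 at -0.66 over 15 arrays, and Sgk1 with Sgk3 at -0.03, given as descriptions of arrays that share labels and slides. The genes with a symbol whose levels ran most like Sgk1 were Mbd1 (Pearson r = 0.960), Fam13a (0.956) and Eva1c (0.955). Those most like Scnn1a were Cpne5 (0.960), Plcb2 (0.953) and Msrb1 (0.948). Per1 itself correlated with Scnn1a at 0.83, with Sgk1 at 0.69 and with Sgk3 at 0.56. Sgk3 ran most like Skp2 (0.933), Nedd4l most like Chrnb1 (0.887) and Atp1b1 most like Ypel5 (0.896). Nr3c2 ran most like Alox12b (0.878) over 15 arrays.

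Other genes of the pathway were read from a list of 69, of which 67 had a named probe and 53 were tested. In each of the 6 label comparisons 0 of 53 were called, as was 0% of all genes. For Dex against vehicle 3 of the 53 had an unadjusted p under 0.05, a smaller share than the 1933 of 17771 genes tested. All 3 were higher: the SGK substrate Ndrg2 by 0.36 ± 0.12, the glucocorticoid-induced leucine zipper Tsc22d3 by 0.42 ± 0.17 and the receptor co-chaperone Fkbp4 by 0.23 ± 0.07 (SE, limma adjusted p = 0.451 for each). Fkbp4 was also higher in E2 against vehicle, by 0.21 ± 0.07 (SE, limma adjusted p = 0.979). The median of the 53 was -0.02 and that of all genes -0.03. On slide 1, where 0.253% of genes were called, Usp2, a deubiquitinase that acts on the sodium channel, differed by 0.91 ± 0.08 (adjusted p = 0.0492). Per1, which splits the arrays there in the same way as the label, is given as a description, at 1.91 and 1.81 on Dex arrays, against -0.96 and -0.75 on vehicle arrays. No other gene of the list was called on that slide. Without Dex 1 or without Dex 2, 0 genes of slide 1 were called.

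By Per1 level, and counting only genes with values on all 16 arrays, 4 of the 53 lay wholly above on Per1-high arrays, against 1.99% of all genes, and 1 wholly below, against 2.02%. The 4 include Per1, which set the split and so separates the sets by construction. The list was also chosen with earlier results of these data known, so the counts are no test against these shares. Usp2 lay at 2.36 to 2.61 on Per1-high arrays, against 1.5 to 1.72 on Per1-low arrays. Fkbp5, a receptor co-chaperone that glucocorticoids induce, lay at -0.46 to 0.24, against -1.32 to -0.61. Tsc22d3 lay at 1.41 to 1.53 on Per1-high arrays, against 0.69 to 1.22 on Per1-low arrays. Nr3c1, the glucocorticoid receptor, was the 1 below, at 1.63 to 1.94 on Per1-high arrays, against 1.96 to 2.25 on Per1-low arrays. Without Vehicle 1 and 2 the counts were again 4, with Per1 among them, and 1, where 2.57% of all genes lay above and 2.44% below.

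The remaining role groups held no tested gene with values on all 16 arrays that separated the sets. Of 6 tested channel and pump subunits 0 did so, with the pump regulator Fxyd1 at medians of 0.95 on Per1-high and 1.11 on Per1-low arrays. Of 13 kinases 0 did so. The kinase Stk39, which activates sodium chloride transporters, had medians of 4.80 on Per1-high and 4.54 on Per1-low arrays, and Wnk1 upstream of it 0.86 and 1.15. Of 4 tested SGK substrates 0 did so. Foxo3, a transcription factor that SGK1 phosphorylates, was above background on 5 arrays and not tested, and it lay at -6.63 to -5.69 on Per1-high arrays, against -8.15 to -6.75 on Per1-low arrays. Among the ion transporters with 16 values 0 did so, with the bicarbonate cotransporter Slc4a4 at medians of -3.57 on Per1-high and -3.20 on Per1-low arrays. The potassium chloride cotransporter Slc12a7 and the chaperone Hsp90ab1 had 15 arrays each and were not counted. On its 15 arrays Slc12a7 lay at 1.21 to 1.32 on Per1-high arrays, against 1.33 to 1.46 on Per1-low arrays, without overlap, while Hsp90ab1 overlapped. The subunits that complete the epithelial channel, Scnn1b and Scnn1g, were each above background on 1 of 16 arrays, and Hsd11b2, the enzyme that keeps glucocorticoids from the mineralocorticoid receptor, on 0.

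**Figure D5:**
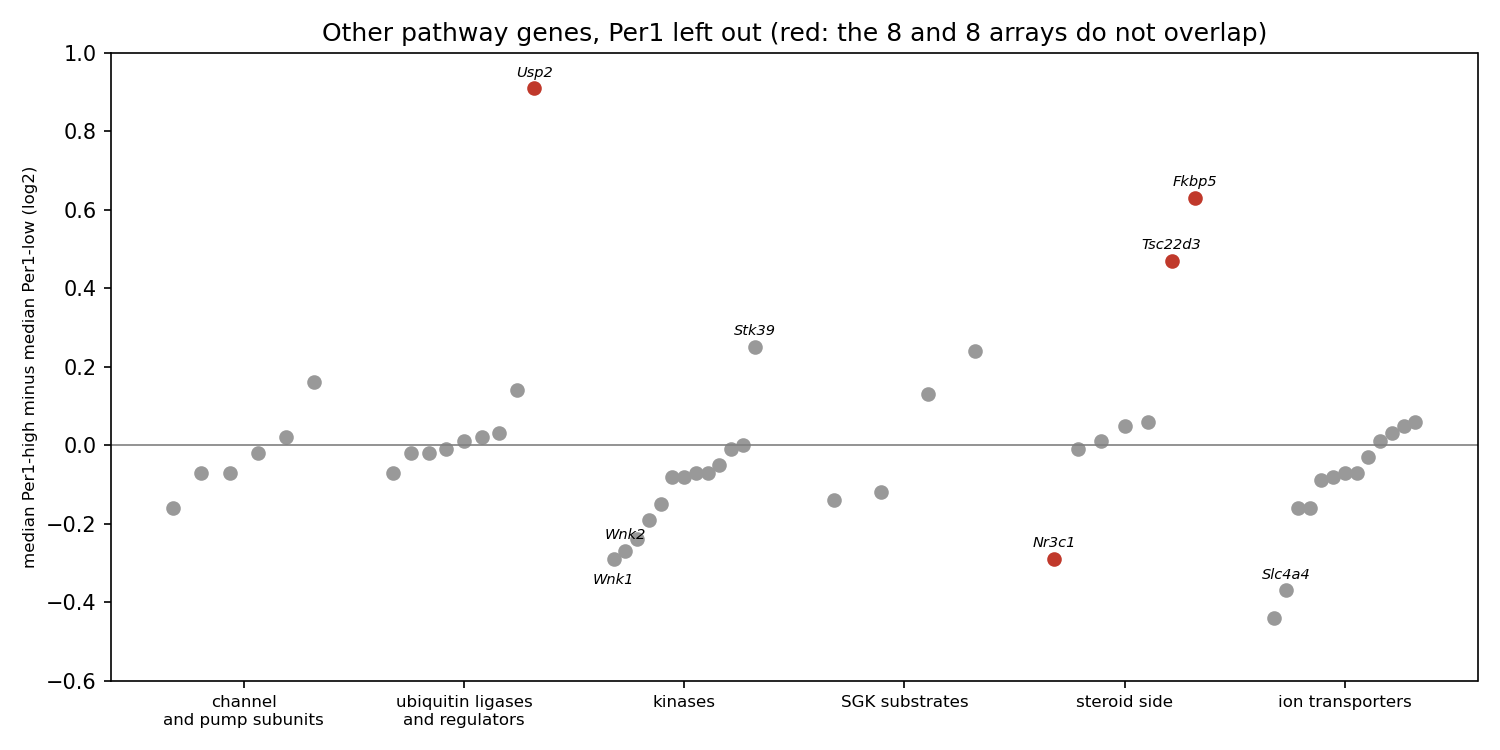
Per1-high median minus Per1-low median (y axis, log2) for the tested pathway genes other than Per1, by role (x axis), red where the 8 Per1-high and 8 Per1-low arrays do not overlap. Usp2 at 0.91, Fkbp5 at 0.63 and Tsc22d3 at 0.47 lie above the rest and Nr3c1 at -0.29 is the red point below 0. Slc12a7, which lacks 1 array, is among the grey points.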

How the data were processed

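RNA of 16 HL-1 cultures was labelled with Cy3 and hybridised to single-colour arrays. Signals were extracted from the scans by Agilent Feature Extraction 12, as the submitters' processing notes say. The deposited scanner files hold a linear intensity for each spot from which the local background has been taken off, per the file headers. The authors also deposited a table of log2 values for the same arrays, used only as an alternative. Its columns correlated with their own arrays at 0.999 or more. Every column held the same set of values, as after quantile normalization, with a median of 4.698. The method that made the deposited table was not stated in the labels or headers.

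From 43379 non-control spots for 41174 probes, spots with outlier flags were left out (385 values), replicate spots averaged and levels taken as log2 of the signal minus the array's 75th percentile. Symbols came from RefSeq accessions (GRCm38.p6) for 28223 probes. A probe was kept where 1 or more groups had it well above background on each of their 4 arrays, with the highest-mean probe per gene (17771 genes). The fit was limma 3.58.1 (lmFit, eBayes with trend) in R 4.3.3 on 16 arrays with treatment as the only term, two-sided, with a call at a Benjamini-Hochberg adjusted p under 0.05. Slides were also fitted singly. On simulated data for Dex against vehicle over 17771 genes, 81 of 100 genes changed by 1 on the log2 scale and 92 of 100 changed by 2 were called, with 6 false calls. The simulated arrays had independent noise and no slide differences, and each followed its label. In the data Per1 went against the label on some arrays, so these shares do not carry over to them. The number of arrays limits the precision.

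The members, the pathway list and the split by Per1 were chosen with earlier results of these data known. Named genes are the members, the pathway list and the 3 genes most like each member. Values of 2 genes of the pathway list are not reported here. The scanner files hold no mean signal column, so the normexp alternative used the median signal.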

Additional observations from a re-analysis of the deposited data

Results flagged for a closer look

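Among 27 combinations of a member and a label with 4 values, 2 had 1 array far from the other 3, where chance flags about 1 in 20. Sgk1 stood at 1.10 on E2 4, against 0.58 to 0.65 on the other E2 arrays, a gap of 0.857 of the label's whole range. E2 4 is the only Per1-high array of its label. Sgk3 stood at -0.37 on Dex+E2 4, against -0.65 to -0.62 on the other Dex+E2 arrays, a gap of 0.893 of the range, although 3 of the 4 Dex+E2 arrays are Per1-high.

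A further Scnn1a probe, which did not stand for the gene, was above background on 4 arrays, at -5.35 to -3.01, and on 0 vehicle arrays. The 4 are Dex+E2 1, Dex 1, E2 3 and E2 4, of which E2 3 is Per1-low, so they follow neither a label nor the Per1 sets.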

How the results depend on the processing

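All 6 label comparisons called 0 genes under every setting run, except that E2 against vehicle called 1 without the variance trend (the transcript AK040234 at -0.63, limma adjusted p = 0.0168, named after its value was seen). Slide 1, with 45 calls, gave 80 with normexp, 9 without the filter, 1 without the trend and 0 to 6678 leaving out 1 array. Of the member differences over all arrays, 249 of 288 moved by no more than 1 SE under planned settings and 573 of 576 leaving out 1 array. The 3 that moved more are Atp1b1 without Vehicle 2 (0.05, -0.13 and 0.01 for Dex, E2 and Dex+E2 against vehicle). Both counts hold rows that could not move, so neither measures how stable the differences are. Leaving out the trend or the filter keeps a difference as it is. So does the replicate block where no value is missing, or leaving out an array of a label outside the comparison. With slide as a fixed block 14 of 36 moved by more than 1 SE, and without Vehicle 1 and 2 (chosen after seeing the data) also 14. None changed its call. Without Vehicle 1, which leaves a lone vehicle array on slide 1, the difference there was 0.31 for Sgk3 and -0.36 for Atp1b1. With all 4 arrays of the slide these were 0.23 and -0.21. The replicate block called 0 genes in each of the 6 comparisons. Its 36 member values moved by less than 1 SE, which was fixed in advance for genes without a missing value. The block can change the SE instead. For Sgk3 in Dex against vehicle the SE went from 0.14 to 0.08 and the limma adjusted p from 0.695 to 0.403. The lowest adjusted p of a member with the block was 0.359. Of 24 same-numbered pairs, 13 correlated over 0.1 (-0.16 to 0.46, number 4 at 0.11 to 0.45). For 9 of 16 arrays the best match in another label had the same number. As not every pair was over 0.1, the numbers were not taken to pair the samples. Between the Per1 sets, normexp took the difference of medians to -1.19 for Nr3c2, -0.17 for Nedd4l, 0.06 for Scnn1a and 0.49 for Atp1b1. Some local backgrounds exceed their signal there, by up to 65511.5 units. With flagged backgrounds replaced, a setting added after seeing the data, Scnn1a was 0.47 and Sgk2 0.04. The other probes of members passed no filter and gave no value. Dim signal limits Sgk2 and Nr3c2.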
